A study of Mus musculus with 7 samples.

Results

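Myelin and astrocyte transcripts were followed in microglia that were sorted from the ischemic brain of old and young mice. They were 8 of the 50686 genes listed in every library. Mbp, Mobp, Mog, Cnp and Aplp1 stood for myelin and the oligodendrocytes that make it, and Gfap, Aqp4 and Slc1a2 stood for astrocytes. They are usually read as genes of other brain cells, but which cells the RNA came from here was not tested. They were chosen by symbol with earlier results of these data known. The libraries came from 4 young (3 to 4 months) and 3 old (21 to 22 months) male C57BL/6 mice, 1 mouse per library. No drug treatment is given for them beyond the isoflurane anesthesia and buprenorphine analgesia of the surgery. All mice, young and old, had undergone 45 min of middle cerebral artery occlusion and were studied 4 days later. The forebrain was dissociated with papain, cleared of myelin with immunomagnetic beads, and sorted for CD11b+ CD45low cells that were also Bodipy+, which means that they took up a dye for the neutral lipids of lipid droplets. Both ages passed the same sort, and sham-operated mice and Bodipy- cells were not analysed here. The comparison of old with young mice asked whether these transcripts differed with age in the sorted cells.

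Myelin is the lipid-rich sheath that oligodendrocytes wrap around axons. Its compact part is held together by proteins such as that of Mbp, and its outer face carries Mog. Astrocytes fill the space between neurons and vessels, where they take up glutamate and water, and they raise the filament protein of Gfap around an infarct. Microglia are the phagocytes of the brain and take up myelin and dead cells after ischemia. In bulk RNA of a sort, fewer cells of a type and less RNA per cell cannot be told apart.

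The sequences just upstream of Mobp and Cnp are given because these myelin genes behaved most differently across the libraries, Cnp being nearly level and Mobp uneven. Both were read from the RefSeq promoter table (GRCm38.p6), on the plus strand, and end 1 base before the gene start of the annotation. Capitals mark ACAAAG or its reverse complement CTTTGT, letters that the SOX family of factors can bind. The motif was picked after the sequences had been seen, so the matches are a description.
Mobp, chr9:120149492-120149706: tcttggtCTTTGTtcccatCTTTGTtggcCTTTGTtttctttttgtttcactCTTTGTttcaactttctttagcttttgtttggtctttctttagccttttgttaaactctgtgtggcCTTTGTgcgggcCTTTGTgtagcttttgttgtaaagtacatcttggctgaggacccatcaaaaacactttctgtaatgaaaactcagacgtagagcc
Cnp, chr11:100574689-100574903: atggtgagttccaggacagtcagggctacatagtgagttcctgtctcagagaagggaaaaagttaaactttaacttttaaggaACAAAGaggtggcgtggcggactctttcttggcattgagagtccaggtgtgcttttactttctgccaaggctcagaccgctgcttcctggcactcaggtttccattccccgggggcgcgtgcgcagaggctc
The Mobp stretch held 6 matches, all of them as CTTTGT, and the Cnp stretch held 1, as ACAAAG. Of 32851 mouse promoters of 300 bases in the table, 18.7% held at least 1 match on either strand, and 1 promoter, that of Mobp itself, held at least 6. The cutoff of 6 was the count of Mobp itself, so this too is a description and not a test.

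Expected counts summed to between 36574083 and 53002386 per library. Microglial genes were abundant in all 7 libraries. Csf1r, Cx3cr1, Tmem119 and P2ry12, receptors and membrane proteins of microglia, stood at 239 to 2382 TPM. TPM, a value scaled within each library, corrects for transcript length and allows levels of different genes to be compared, whereas CPM (counts scaled to library size by TMM) was used to compare 1 gene between libraries. 3 libraries stood apart in ways that touch the results. Old mouse 3posI had the lowest summed CPM of the 12 microglial genes, 16561 against 28036 to 38053 in the others, and the highest sum of 14 genes of infiltrating leukocytes, 2007 against 24.5 to 146. Young mouse 23C and old mouse 2posI carried the most RNA of astrocyte genes, as described below. Each fold change was therefore also computed without each library in turn.

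All members lay far below the microglial genes, and they did not lie at 1 common level. Cnp had the highest level, 46.8 to 57.2 TPM, and was above every other member in every library. Mbp followed with 8.12 to 15.3 TPM. Gfap ranged from 2.48 to 33.2 TPM and thus overlapped both Mbp and the next gene, Aplp1, which ranged from 1.71 to 4.52 TPM without overlapping Mbp. Mobp had 0.45 to 4.18 TPM, Slc1a2 0.23 to 1.72 TPM and Aqp4 0.28 to 1.28 TPM, and these ranges overlapped. Mog was lowest, at 0 to 0.22 TPM, below the lowest value of any other member.

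**Figure D1:**
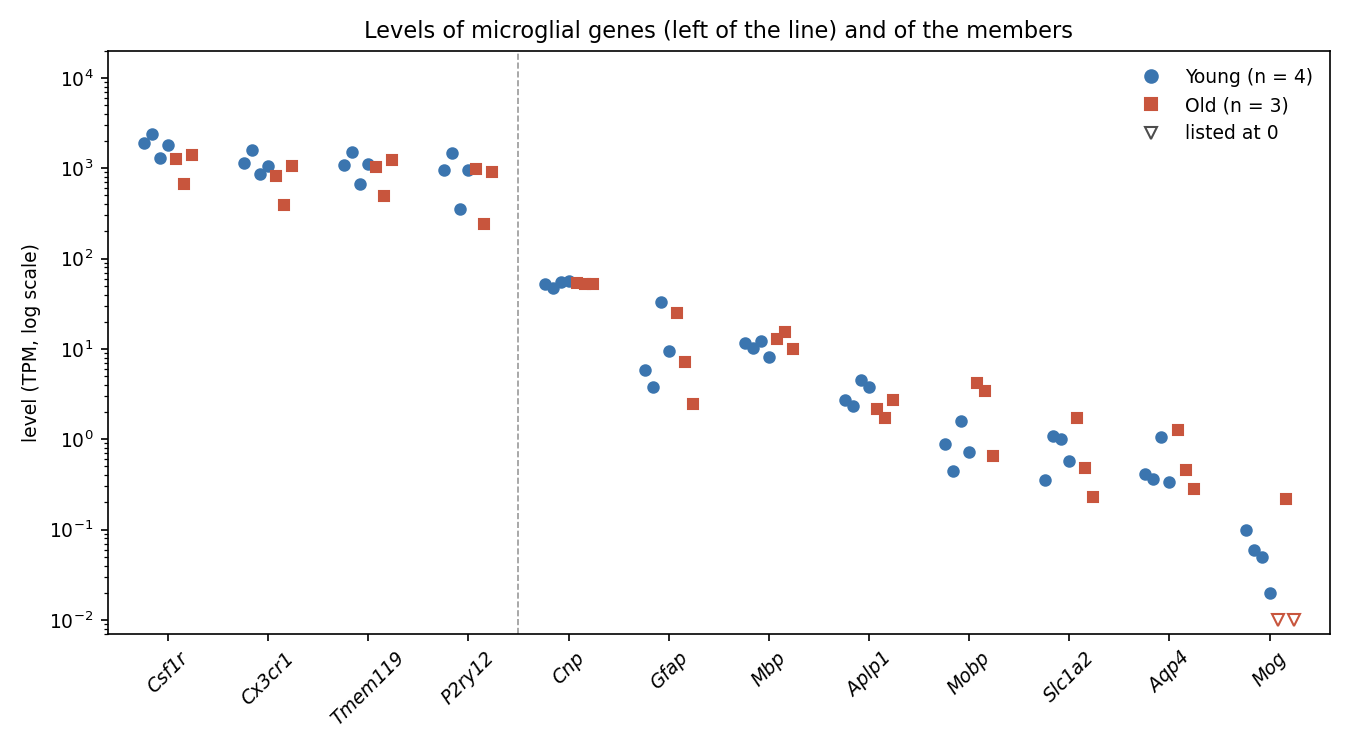
Levels in TPM on a log axis of 4 microglial genes (left of the dashed line) and the 8 members, with 1 circle per young and 1 square per old library and open triangles for values listed at 0. Cnp forms a tight group (46.8 to 57.2 TPM), Gfap is spread from 2.48 to 33.2 TPM, and Mog lies at the bottom with 2 libraries at 0.

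Cnp encodes an enzyme of the inner layers of myelin (CNPase), and it was almost level across mice. It lies on chromosome 11 from 100574904 to 100591729 on the plus strand (GRCm38). Cnp was counted at 84.7, 70.9, 89.9 and 93.7 CPM in young mice 14C, 18C, 23C and 29C, and at 98.1, 93.7 and 83.2 CPM in old mice 2posI, 3posI and 4posI. The ages overlapped. Young mice averaged 84.8 ± 9.99 CPM (SD, n = 4) and old mice 91.7 ± 7.65 CPM (SD, n = 3), so that the log2 ratio of old to young was 0.11 ± 0.13 (SE), with an adjusted p of 0.677 (edgeR). The highest library had 1.38 times the CPM of the lowest, and Cnp's SD of log2 CPM over the 7 libraries was 0.16, below the median of 0.31 over the 12174 tested genes with at least 1 CPM. Cnp shares 154 exon bases with Dnajc7. The library kit did not mark strand, RSEM split some reads, and the expected count of Cnp was not whole in any of the 7 libraries.

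Mbp, the gene of myelin basic protein, was likewise steady. Its levels were 27.2, 25.4, 28.9 and 21.5 CPM in the 4 young libraries, and 28.5, 36.2 and 21.9 CPM in the 3 old ones. Library 3posI was highest, and the other old libraries lay within the young range. Young mice averaged 25.8 ± 3.19 CPM (SD, n = 4) and old mice 28.9 ± 7.15 CPM (SD, n = 3). The log2 ratio of old to young was 0.16 ± 0.19 (SE), with an adjusted p of 0.671 (edgeR). When edgeR was given the deposited effective lengths as offsets, it was 0.39 ± 0.21 (SE), with an adjusted p of 0.346. Together, Cnp and Mbp made up 91.3% to 95.2% of the summed TPM of the 5 myelin members. That sum was 59.8 to 73.6 TPM in young and 65.9 to 72.5 TPM in old mice, and its highest value was 1.23 times its lowest.

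By RSEM's estimate, the reads of Mbp did not come from the transcripts of compact myelin alone. The gene has 16 transcripts in the annotation (GENCODE vM21). Most start at the downstream promoter used in myelin, and others start far upstream of it and are known as golli transcripts, which are also made in immune cells. RSEM gives for each gene and library a length that is weighted by the abundance of its transcripts. For Mbp this length was 3324, 3632, 3403 and 3503 bases in young mice 14C, 18C, 23C and 29C, and 2791, 3057 and 3193 bases in old mice 2posI, 3posI and 4posI. Every value exceeded the second longest annotated transcript, of 2492 bases, and only 1 transcript is longer, a golli transcript with 4 exons and 4797 bases. That transcript would therefore make up at least 36.1%, 49.5%, 39.5% and 43.9% of Mbp molecules in the young libraries, and at least 13.0%, 24.5% and 30.4% in the old ones.

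The weighted length of Mbp was shorter in every old than in every young library, at 3014 ± 204 bases (SD, n = 3) against 3466 ± 133 bases (SD, n = 4), with an exact permutation p of 0.0286 (two-sided), the smallest that 3 against 4 libraries can give. Lengths of Aplp1 also did not overlap, at 2343, 2343, 2343 and 2276 bases in young and 2040, 1931 and 1656 bases in old mice, with the same p. In the other 6 members the ages overlapped. Of 11768 genes tested that have several annotated transcripts and a length that varied, 6.31% were shorter in all old than in all young libraries and 13% were longer. The transcript lengths came from a later release than the authors used, and the single annotated Aqp4 transcript is 5054 bases there against 5082 in the files, so the bounds for Mbp may be slightly off. These lengths are RSEM's estimates from short reads, and no interval is available for them.

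**Figure D2:**
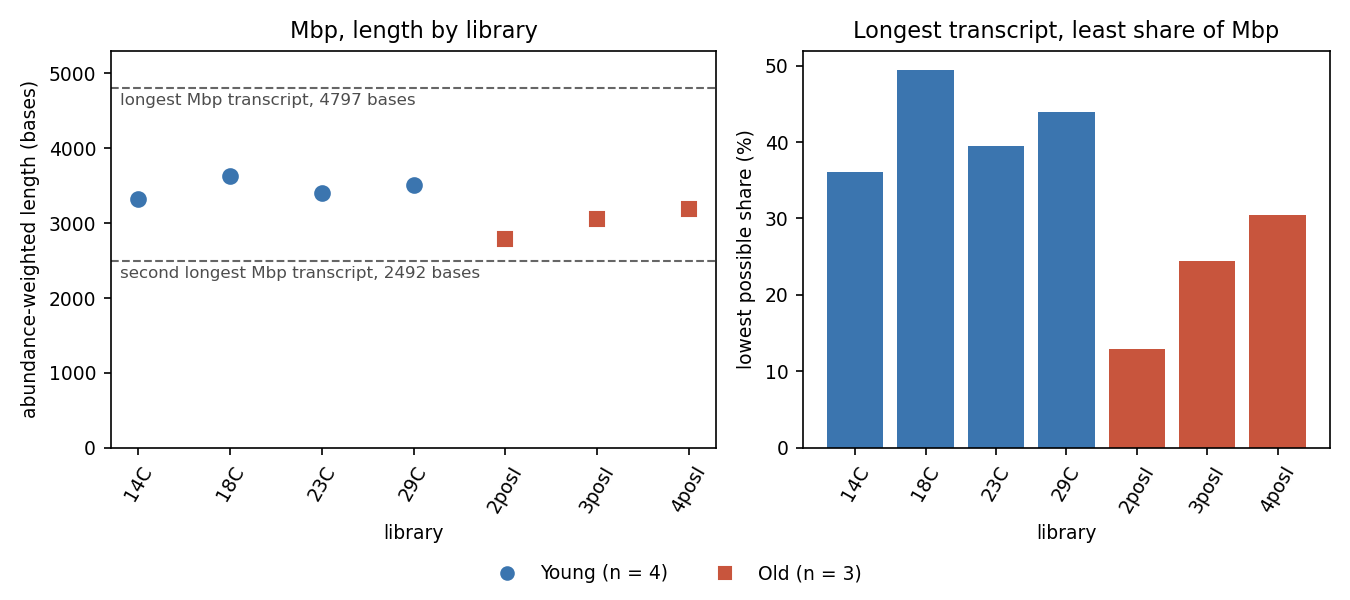
Abundance-weighted length of Mbp in bases by library (left), with dashed lines at the longest and second longest annotated Mbp transcripts (4797 and 2492 bases), and the least share of the longest transcript that each length allows, in percent (right). Circles and blue bars are young and squares and red bars are old libraries. All 7 lengths lie above the lower line, and the old libraries (2791 to 3193 bases) lie below the young ones (3324 to 3632 bases).

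Mobp, which encodes a protein of compact myelin, was higher in 2 of the 3 old libraries than in any young one. The gene lies on chromosome 9 from 120149707 to 120181484 on the plus strand (GRCm38), and its upstream sequence is the first of the pair printed above. Young mice 14C, 18C, 23C and 29C had 1.52, 0.805, 1.88 and 1.03 CPM, from 36 to 96 counts. Old mice 2posI and 3posI had 7.63 and 5.98 CPM, from 256 and 234 counts, but 4posI had 1.19 CPM from 55 counts and lay within the young range. Means were 1.31 ± 0.484 CPM (SD, n = 4) and 4.93 ± 3.35 CPM (SD, n = 3). On the log2 scale the fold change was 1.91 ± 0.58 (SE). The unadjusted p was 0.00959 and the adjusted p was 0.141 (edgeR), so Mobp did not pass. DESeq2 gave nearly the same fold change, 1.92, with an adjusted p of 0.0174, and over all alternatives the adjusted p ran from 0.0174 to 0.331. DESeq2 called 4.26% of all genes tested as higher in old mice. Without 4posI the log2 fold change was 2.37 and the adjusted p 0.0501, and over the other libraries left out it was between 1.45 and 2.14 (edgeR). A stretch of 79 exon bases is shared with the predicted gene Gm38642.

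Mog, the gene of a glycoprotein on the outer face of myelin, was close to undetected. There were 2, 3, 3 and 1 counts in young mice and 0, 6 and 0 counts in old mice. The gene stayed under the filter and was not tested. The 9 counts of the young and 6 counts of the old libraries correspond to 0.0478 CPM (95% exact Poisson interval 0.0218 to 0.0907) and 0.0504 CPM (0.0185 to 0.11). The 0 counts of 2posI and 4posI allow up to 0.0894 and 0.0648 CPM at 3 counts. These limits cover counting error only, since without molecular identifiers PCR copies of 1 molecule are counted separately. A difference in Mog was not detectable at this depth. In 2posI, the library with the most Mobp, Mog was at 0.

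Aplp1, a relative of the amyloid precursor protein found in neurons and maturing oligodendrocytes, was lower in all old libraries. It lies on chromosome 7 from 30434982 to 30445535 on the minus strand (GRCm38). It had 4.50, 3.74, 7.34 and 6.47 CPM in young mice, and 3.52, 2.53 and 3.04 CPM in old mice. The ages did not overlap, but the lowest young library (18C) exceeded the highest old one (2posI) by little. Means were 5.51 ± 1.68 CPM (SD, n = 4) and 3.03 ± 0.493 CPM (SD, n = 3). The log2 fold change was -0.86 ± 0.29 (SE), with an unadjusted p of 0.0162 and an adjusted p of 0.170 (edgeR), so Aplp1 did not pass. The exact permutation test on log2 CPM gave a p of 0.0571 (two-sided). In 9.06% of all genes tested, every old library was below every young one, and 1 of the 7 members tested did so. In TPM, which takes up the shorter weighted length in old mice, Aplp1 overlapped between ages, at 2.34 to 4.52 TPM in young and 1.71 to 2.70 TPM in old mice. When edgeR was given the deposited effective lengths as offsets, the log2 fold change of Aplp1 was -0.52 (adjusted p 0.371), and over all alternatives the adjusted p ran from 0.0574 (DESeq2) to 0.371. Thus the direction held and the size depended on the unit.

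The 3 astrocyte members varied together across the mice, and both ages held high and low libraries. Gfap encodes the filament protein of astrocytes, Aqp4 the water channel of their endfeet and Slc1a2 their main glutamate transporter. Gfap had 10.4, 6.82, 61.1 and 18.6 CPM in young mice 14C, 18C, 23C and 29C, and 52.8, 14.5 and 4.51 CPM in old mice 2posI, 3posI and 4posI. Young mouse 23C and old mouse 2posI were therefore high, and 4posI was lowest. Means were 24.2 ± 25.0 CPM (SD, n = 4) and 23.9 ± 25.5 CPM (SD, n = 3).

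Aqp4 had 1.49, 1.25, 3.79 and 1.29 CPM in young mice, and 5.24, 1.81 and 0.972 CPM in old mice. Slc1a2 had 2.53, 5.50, 5.71 and 2.99 CPM in young mice, and 16.0, 4.34 and 1.51 CPM in old mice. As for Gfap, 23C was highest of the young and 2posI highest and 4posI lowest of the old libraries in both genes, although 18C came close to 23C in Slc1a2. The order of the other young libraries differed between the 3 genes. Between libraries, CPM varied 13.5-fold for Gfap, 5.40-fold for Aqp4 and 10.6-fold for Slc1a2. The coefficient of variation of Gfap over the 7 libraries was 95.5%, whereas counting alone would give about 3.09% at its mean count. Slc1a2 shares 189 exon bases with the predicted gene Gm13872, and its count was not whole in 1 library.

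No astrocyte member passed the test of age with edgeR. On the log2 scale old over young was -0.02 ± 0.90 (SE, adjusted p 0.993) for Gfap, 0.45 ± 0.62 (SE, adjusted p 0.740) for Aqp4 and 0.80 ± 0.68 (SE, adjusted p 0.557) for Slc1a2 (edgeR). These errors are large, so changes of 2-fold or more cannot be told from no change. Single libraries set the sign. Without 2posI the values were -1.35, -0.49 and -0.52, and without 23C they were 1.00, 0.99 and 0.99. The summed TPM of the 3 genes ran from 2.99 (4posI) to 35.3 (23C), an 11.8-fold range. Over the same libraries the sum of the myelin members varied 1.23-fold. Cnp made up 71.5% to 81.9% of that sum, and Mobp alone varied 9.47-fold in CPM.

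**Figure D3:**
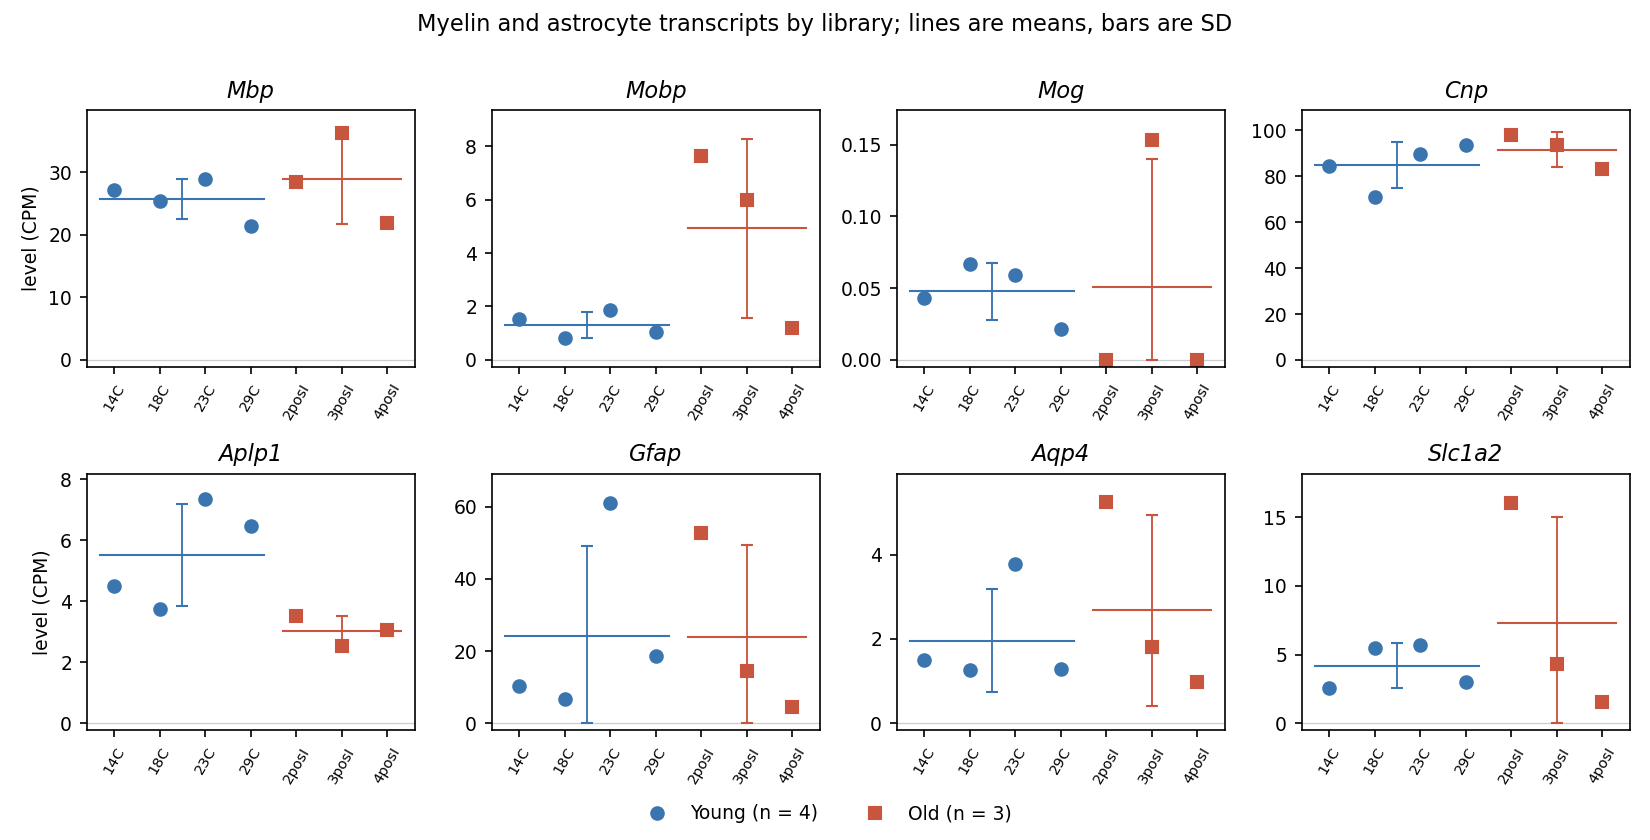
CPM of each of the 8 members in the 4 young (circles) and 3 old (squares) libraries, each panel on its own linear axis, with the mean (line) and SD (bar, drawn no lower than 0) of each age. Mbp and Cnp are level, Mobp is high in 2posI and 3posI, Aplp1 is lower in all old libraries, and Gfap, Aqp4 and Slc1a2 are high in 23C and 2posI.

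In all, 7 of the 8 members entered the test and 0 passed an adjusted p of 0.05 with edgeR. Over all 17559 genes tested, 141 passed, or 0.803%, of which 100 were higher and 41 lower in old mice. At an unadjusted p under 0.05 there were 2 members, Mobp and Aplp1, against 18.9% of all genes. DESeq2 called 1 member, Mobp, and limma-voom 0. In 0 of the 7 members was every old library above every young one, against 8.7% of all genes. The summed CPM of the 5 myelin members averaged 117 ± 11.8 (SD, n = 4) in young mice and 129 ± 16.6 (SD, n = 3) in old ones, and that of the 3 astrocyte members was 30.4 ± 27.1 and 33.9 ± 35.4.

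**Figure D4:**
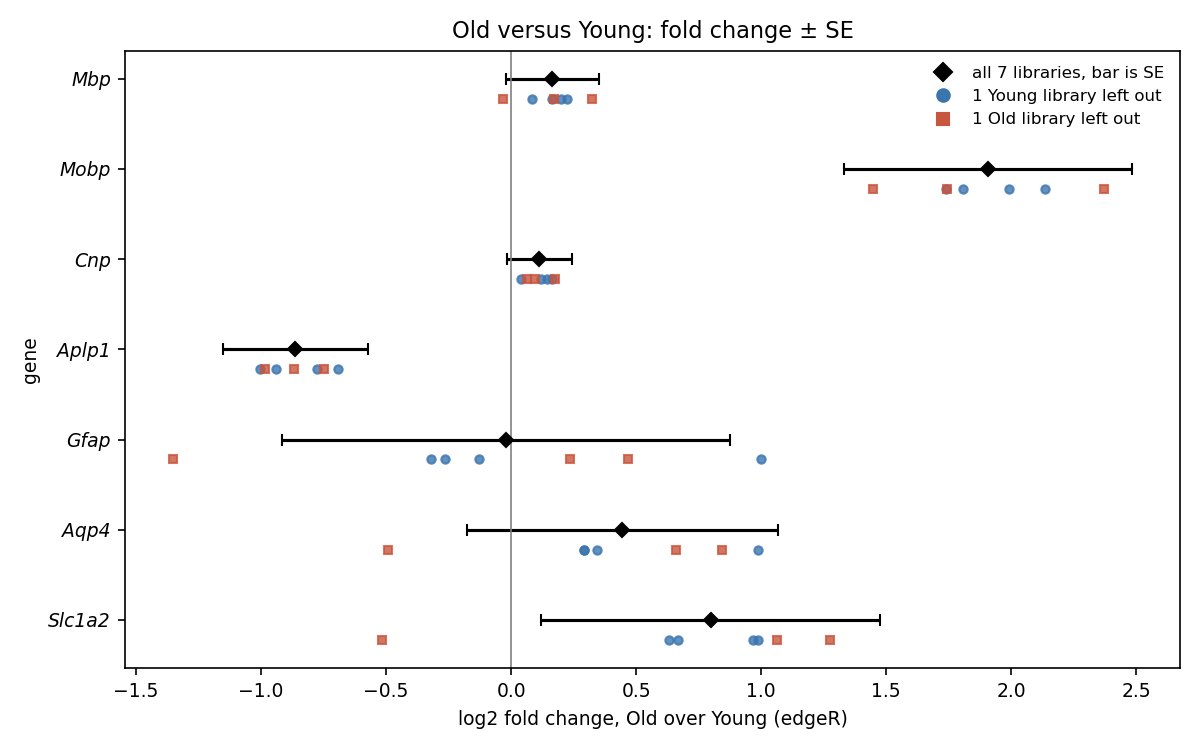
Log2 fold change of old over young mice for the 7 members tested with edgeR (black diamonds, bars are SE) and the values with 1 young (blue circles) or 1 old library (red squares) left out. Mobp stays above 0 (1.45 to 2.37) and Aplp1 below 0 (-1.01 to -0.69), whereas Gfap runs from -1.35 to 1.00 and Aqp4 and Slc1a2 also cross 0.

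Other genes of oligodendrocytes were read from 3 lists. Among genes of the myelin membrane, 7 of 12 were tested, 2 with a higher and 5 with a lower value in old mice, a median log2 fold change of -0.74, and 0 passed. This median depended on the method, for it was -0.07 with limma-voom, 0.01 with quality weights, 0.02 with effective lengths as offsets, and -0.13 and -0.15 on log2(TPM + 1) and log2(TPM + 0.1), and it was -0.38 without 23C. In this list Mag, an adhesion protein facing the axon, had 11.4 to 28.3 CPM, and Mal, a raft protein, 1.63 to 4.19 CPM. Mag did not share the profile of Mobp, for it was lowest in 3posI (11.4 CPM) and 23C (13.4 CPM). In the list given next, genes were mixed. Tppp was also lowest in 3posI (5.19 CPM) and 23C (6.06 CPM). Car2 came closer to Mobp, with 5.54 and 3.68 CPM in 2posI and 3posI and 1.19 to 3.55 CPM in the others. Bcas1 had 2.59 and 2.25 CPM in 2posI and 3posI, but also 2.47 CPM in 23C, and 0.112 to 0.909 CPM in the others. Among enzymes, cytoplasmic and secreted proteins, 13 of 16 were tested, 9 with a higher and 4 with a lower value, a median of 0.10 (-0.15 without 2posI), and 0 passed. The most abundant were Trf (1032 to 1894 CPM), which encodes transferrin, Sirt2 (171 to 227 CPM), a deacetylase, and Qdpr (57.9 to 73.1 CPM), an enzyme of pterin recycling. Over all genes tested the median was -0.01, with 8571 higher and 8988 lower.

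The transcription factors of the oligodendrocyte lineage were uneven between libraries, from 0 counts to the 439 counts of Olig1 in 23C. Of 6 genes, 4 were tested, 2 with a higher and 2 with a lower value, a median of -0.29, and 0 passed. Single libraries set this sign, since the median was 1.23 without 23C and 0.28 without 4posI, but -1.34 without 3posI and -0.72 without 2posI. Olig1 had 8.61 CPM in 23C and 0 to 2.81 CPM in the others, Sox10 had 2.35 CPM in 23C and 0 to 1.46 CPM in the others, and Olig2 had 1.20 CPM in 23C and 0.0432 to 0.983 CPM in the others. In 4posI, where Cnp stood at 83.2 CPM, Olig1 and Sox10 were at 0. Of 7 genes of oligodendrocyte precursors, 2 had a higher and 5 a lower value, with a median of -0.28, and 0 passed. Here too the median was 0.53 without 23C and 0.24 without 4posI, but -0.98 without 2posI. The most abundant were Cspg4, a proteoglycan (14.8 to 66.1 CPM), and the receptor Pdgfra (0.216 to 4.71 CPM), and both were highest in 23C.

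Further astrocyte genes numbered 23, all tested, of which 10 had a higher and 13 a lower value in old mice, with a median log2 fold change of -0.06, and 0 passed. The median was 0.20 without 23C, 0.25 without 4posI and 0.09 without 3posI, but -0.54 without 2posI. Many shared the pattern of the 3 members. In 19 of the 23 genes 23C was the highest young library, in 19 2posI was the highest old one and in 19 4posI was the lowest old one. Over all genes tested, 15.4% were highest of the 7 in 23C and 16.0% in 2posI, and of the 23 genes 10 and 9 were. Clu, which encodes clusterin, had 31.7 CPM in 23C and 34.8 CPM in 2posI, against 9.39 to 19.96 CPM in the others. Glul, the gene of glutamine synthetase, followed in part, with 369 CPM in 23C, 314 CPM in 2posI and 145 to 248 CPM in the others. Slc1a3, another glutamate transporter, did not, with its lowest values in 3posI (29.8 CPM) and 23C (47.7 CPM).

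Markers of other cells moved with the members in part, and their share in these results was not tested. The 3 astrocyte members had a median deviation from their own means of 1.00 in 23C, 1.71 in 2posI and -1.48 in 4posI (log2 CPM). In the same 3 libraries it was 0.79, 0.54 and -0.48 over 16 neuronal genes, 1.10, 0.65 and -0.54 over 7 pericyte genes, and 1.79, 0.85 and -1.46 over the 7 precursor genes. Over the 4 myelin members tested it was 0.08, 0.13 and -0.37. Over all genes tested it was 0.02, -0.01 and 0.02. By these medians, 23C and 2posI were high and 4posI was low in the neuronal, pericyte and precursor lists, but not every list followed. In 2posI the median was -0.07 over the endothelial, -0.76 over the ependymal and choroid plexus and -0.31 over the myelin membrane genes. Summed CPM also differed from the medians. The neuronal sum was lowest in 2posI (110), and the precursor sum was 26.3 in 2posI against 41.7 in 4posI. The median of the myelin members deviated less, with the same signs, but it joins genes that differed. In 2posI, Mobp had its highest value (7.63 CPM), whereas Aplp1 (3.52 CPM) was below every young library.

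With age, these lists held few calls. Of 21 neuronal genes 16 were tested, and the list had 8 genes with a higher and 8 with a lower value, a median log2 fold change of 0.06 (0.69 without 23C, 0.39 without 4posI and -0.05 without 2posI), and 0 passed. Syp, which encodes a protein of synaptic vesicles, had 2.67 to 4.40 CPM and was not tested, since it lies on chromosome X, which the study's filter left out. Of 11 endothelial genes tested, 3 had a higher and 8 a lower value, with a median of -0.64 that was -0.23 without 23C and -0.27 without 4posI. Among them were Cldn5, of the tight junctions (10.1 to 58.5 CPM), and the receptor Flt1 (9.69 to 18.6 CPM). Slco1a4, an organic anion transporter of brain vessels, was the 1 gene of all lists that passed. It fell from 8.47 ± 1.71 CPM (SD, n = 4) to 2.69 ± 0.178 CPM (SD, n = 3), a log2 change of -1.66 with an adjusted p of 0.0280 (edgeR). The call was lost without any 1 of 6 of the 7 libraries, at an adjusted p of 0.0564 to 0.121, and was kept without 3posI (adjusted p 0.0388).

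The 7 pericyte genes had a median log2 fold change of 0.14 (0.66 without 23C, 0.51 without 4posI, -0.40 without 2posI and -0.15 without 18C), with 4 higher and 3 lower values and 0 passing, and Rgs5 (1.97 to 21.8 CPM) and Vtn (1.61 to 9.81 CPM) led them. All 8 ependymal and choroid plexus genes had lower values in old mice, with a median of -1.32 (-0.57 on log2(TPM + 1)), but 0 passed. Ttr, the transthyretin gene of the choroid plexus, had 90.5 to 247 CPM, and the folate receptor gene Folr1 had 1.43 to 2.73 CPM. Of 13 leukocyte genes tested, 12 had higher values, with a median of 3.24, and 0 passed. The median was 1.01 without 3posI, 1.85 with quality weights, and 0.88 and 1.87 on log2(TPM + 1) and log2(TPM + 0.1). Chil3, a marker of monocytes, had 1426 CPM in 3posI and 7.76 to 68.9 CPM in the others, and the chemokine receptor Ccr2 had 231 CPM and 2.07 to 19.3 CPM. Of 12 microglial genes, 4 had higher and 8 lower values, with a median of -0.22 (0.03 without 3posI and -0.46 without 2posI), and 0 passed. C1qa, of the complement system, had 5193 CPM in 3posI and 6514 to 8555 CPM in the others. At an unadjusted p under 0.05 (edgeR) there were 18.9% of all genes tested. In the lists there were 8 of 13 leukocyte, 4 of 11 endothelial, 4 of 8 ependymal and 2 of 16 neuronal genes. There were also 1 of 7 pericyte, 1 of 12 microglial and 1 of 7 precursor genes. The 3 oligodendrocyte lists had 0 of 24 and the further astrocyte genes 0 of 23. DESeq2 called 4 of 13 leukocyte, 3 of 11 endothelial, 1 of 8 ependymal and 1 of 12 microglial genes and 0 in the other lists. Over all genes tested it called 1403 of 17559 in either direction.

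**Figure D5:**
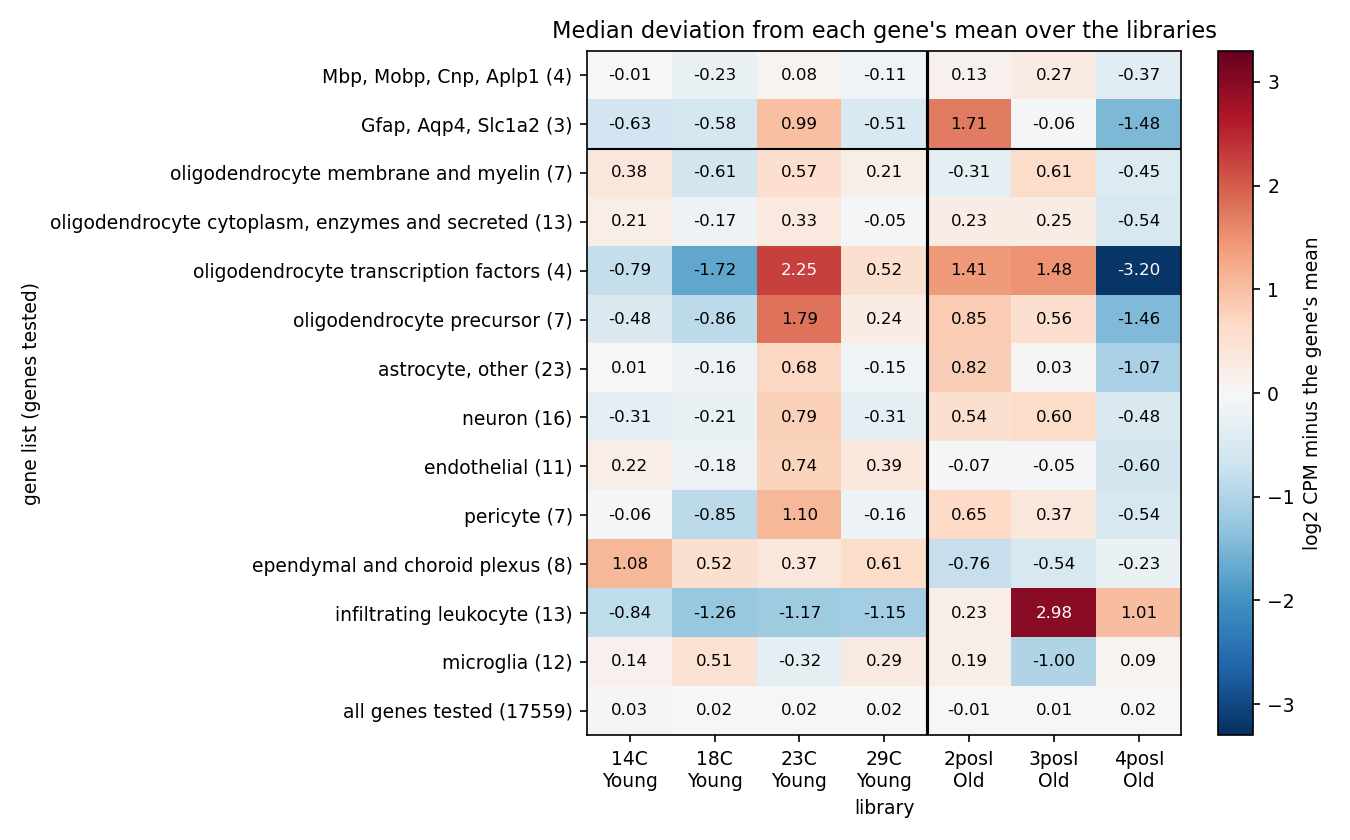
Median deviation of each gene list in each library, as log2 CPM minus the gene's own mean over the 7 libraries, with the number of genes tested in brackets, the members above the horizontal line and the young libraries left of the vertical line. The astrocyte members (second line) are red in 23C and 2posI and blue in 4posI, as are the precursor genes. The median of the myelin members (first line), which differed among themselves, stays between -0.37 and 0.27.

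Genes whose profile over the 7 libraries was most like that of the members were looked up among 12167 other tested genes with at least 1 CPM. Likeness was the root mean square difference between centred log2 CPM values, which is small for like profiles. The mean profile of the astrocyte members was -0.57, -0.48, 1.11 and -0.28 in young mice 14C, 18C, 23C and 29C, and 1.69, -0.06 and -1.42 in old mice 2posI, 3posI and 4posI. Scg3, which encodes a granin of secretory vesicles, was closest, with a difference of 0.0936 and 0.866, 1.07, 2.69 and 1.05 CPM in young and 4.17, 1.28 and 0.518 CPM in old mice. The next were Phyhipl, Cpe (a peptidase of secretory vesicles), Atp1b2 (a sodium pump subunit of astrocytes and 1 of the 23 listed genes), Ptprz1 (a phosphatase receptor of glia), Spats2l, Shc4 and Schip1, with differences of 0.298 to 0.370. Another listed gene, Aldoc, ranked at 11.

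The mean profile of the 4 myelin members tested was flatter, at -0.08, -0.46, 0.22 and -0.13 in young and 0.48, 0.35 and -0.39 in old mice. The 8 nearest genes differed by 0.106 to 0.131 and included 0 genes of the oligodendrocyte lists. They were Tgm1 (a transglutaminase), S100a1 (a calcium-binding protein), Etfb and Etfa (the subunits of the mitochondrial electron transfer flavoprotein), Hebp1 (a heme-binding protein), Ap2m1 (a subunit of the clathrin adaptor), Dbi (an acyl-CoA binding protein) and Coq3 (of ubiquinone synthesis). Ap2m1 had 316 to 498 CPM and S100a1 28.1 to 51.4 CPM, both highest in 2posI or 3posI and lowest in 18C. The first genes of the oligodendrocyte lists were Sirt2 at rank 581 and Qdpr at rank 1749. With 7 libraries, and with Cnp and Mbp steady and Mobp and Aplp1 opposed, this mean profile describes none of its members well.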

How the data were processed

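RNA of sorted microglia was measured by RNA sequencing of Smart-seq2 cDNA, in libraries that the labels call non-stranded. For RNA extraction the labels name a PureLink kit and the study's methods PicoPure. The authors used FastQC 0.11.5 for read quality, skewer for trimming, STAR for mapping (GRCm38) and RSEM for quantification (GENCODE m15). They deposited RSEM's expected counts, not normalized, TPM and FPKM values scaled per library, and the length of each gene weighted by transcript abundance with the matching effective length. FPKM values were not used.

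Expected counts were rounded to whole numbers. Following the study's methods, genes needed more than 10 in at least 1 library and had to be autosomal, which left 17559. Old and young mice were compared in R 4.3.3 with edgeR 4.0.16 (TMM factors 0.952 to 1.05, quasi-likelihood test, Benjamini-Hochberg adjustment over all genes tested, threshold 0.05). The labels give no batch. Log2 CPM has a prior count of 1. Annotation came from GENCODE vM21, a later release than the authors' on the same build. Of 21948 genes at 0 whose transcripts are all in it, 97.9% had the file's length within 1%. The lowest share of the longest Mbp transcript is the share it would need if all other molecules had the length of the second longest. The scripts were tested on simulated counts. Also run were limma-voom with or without quality weights (limma 3.58.1), DESeq2 1.42.0, other scalings and filters, TPM on a log2 scale with a pseudocount of 1 or 0.1, an exact permutation test, and each library left out in turn.

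The members and lists were chosen with earlier results of these data known. Named are the 8 members, 4 microglial genes, any gene of the other oligodendrocyte and astrocyte lists that passed, the 3 of highest mean CPM in each of these, the 2 of highest mean CPM in each other list and the 8 genes nearest to each mean profile. Slco1a4, Aldoc, Tppp, Car2, Bcas1 and the ranks of Sirt2 and Qdpr were added after their values were seen. Some genes that the rule names are not reported here.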

Additional observations from a re-analysis of the deposited data

Results flagged for a closer look

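Within the 4 young libraries, 21 levels and sums were checked for a library far from the others by Dixon's test, of which about 1.05 would be flagged by chance, and 4 were. Old libraries numbered 3 and were not tested in this way. Aqp4 stood at 3.79 CPM in 23C against 1.25 to 1.49 CPM in the other young mice, and the gap took 0.905 of the whole range. The summed CPM of Gfap, Aqp4 and Slc1a2 was 70.5 in 23C against 13.6 to 22.9, a gap of 0.837, and Gfap alone had 61.1 CPM in 23C. The summed CPM of the 23 further astrocyte genes was 596 in 23C against 406 to 421, a gap of 0.921. Much of it was Glul, at 369 CPM in 23C against 218 to 239 CPM in the other young mice. In 19 of the 23 genes 23C was the highest young library, but Slc1a3 (47.7 CPM) was at its lowest young value there. The Aqp4 level and both astrocyte sums come from the same mouse and are not independent. The summed CPM of the ependymal and choroid plexus genes was 98.3 in 29C against 233 to 255, a gap of 0.859. This sum was mostly Ttr, at 90.5 CPM in 29C against 221 to 247 CPM in the other young mice. The list as a whole was not low in 29C, where its median deviation was 0.61 (log2 CPM). Without 23C the log2 ratio of the summed astrocyte members, old over young, was 1.00 instead of 0.16. The cause of these gaps was not tested.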

How the results depend on the processing

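0 of the 7 members tested passed under edgeR or limma in any setting, with each library left out in turn included, and 1 passed with DESeq2 (Mobp, log2 fold change 1.92, adjusted p 0.0174). Over all settings Mobp ran from 0.85 to 2.37 and Aplp1 from -1.01 to -0.43 (log2 fold change, old over young) without a change of sign. Signs changed for Mbp without old mouse 3posI (-0.032), for Cnp on log2(TPM + 1) and log2(TPM + 0.1) (-0.00579 and -0.00582), and for Slc1a2 on the same scales (-0.018 and -0.174) and without 2posI (-0.52). They also changed for Aqp4 without 2posI (-0.49), and for Gfap with quality weights (0.16) and without 23C (1.00), 3posI (0.24) or 4posI (0.47). With each library left out the ranges were -0.032 to 0.32 for Mbp, 0.04 to 0.17 for Cnp, -1.35 to 1.00 for Gfap, -0.49 to 0.99 for Aqp4 and -0.52 to 1.28 for Slc1a2. Over all settings Mbp was highest with effective lengths as offsets, at 0.39. The log2 ratio of the summed CPM ran from 0.05 to 0.23 for the myelin and from -1.13 to 1.00 for the astrocyte members. Both stayed within 1 SD between replicates of the main value. That SD was 0.17 for the myelin but 1.37 for the astrocyte members, whose ratio changed sign within it.

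The number of genes past the threshold, 141, was 318 with quality weights, 1403 with DESeq2, 213 with effective lengths, 288 without a filter, 64 and 71 on the TPM scales with 1 and 0.1 added, and 1 to 159 with a library left out. It fell to 1 without 14C, 18C or 2posI, to 2 without 29C, to 14 without 23C and to 85 without 4posI. Of the 64 and 71 calls 32 and 34 were higher in old mice, against 100 of 141, and with 0.1 added the median of all genes was -0.13. The cause was not tested. No paired analysis was possible because the labels give the animals no shared numbers.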
